A study of Drosophila melanogaster with 2 samples.

Results

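Chromosome arm 3L of Drosophila melanogaster carried 407 of the 2126 contact domains (19.1%) in a Hi-C map of Kc167 cells, a cell line of embryonic origin. All rows of the deposited domain list on that arm were taken, with no choice by length or score. A contact domain is a stretch of chromosome whose parts touch each other more often than they touch the sequence outside it. The study assayed 2 samples of this 1 line, a primary experiment and a biological replicate, both untreated, grown at 25 °C and fixed with 1% paraformaldehyde. Chromatin was cut with DpnII and ligated while held on beads, and the 2 samples were combined into 1 list of domains and 1 list of loops on the dm3 build. The line has no comparison group in this series. A Hi-C list holds no marker levels, so the identity of the cells could not be checked against it.

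In flies, a chromosome arm is a row of contact domains, and the borders between them tend to lie at active genes and at sites of insulator proteins, which limit contact between neighbouring stretches. Long fly domains are known to hold mostly inactive or Polycomb-bound chromatin, Polycomb being the group of proteins that keeps developmental genes silent. Loops, pairs of anchors that touch more often than their surroundings, have been described between Polycomb-bound sites in this cell line. Towards its centromere the arm passes into pericentromeric heterochromatin, which is compact and rich in repeats. These points are background, and neither gene positions nor chromatin marks were analysed here.

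Because both samples were pooled before the lists were made, no value below has a spread between samples and no test between groups could be made. The read depth behind each domain or loop is unknown. Medians carry the binomial order-statistic interval (95%) and shares of loops or anchors the exact Clopper-Pearson interval (95%). Both treat features as separate draws, which neighbours on 1 arm are not, and neither covers biological error. Values of the whole list stand beside those of 3L as a description only. Starts of domains are printed 1 higher than in the list, which counts them from 0, and anchors are printed unchanged.

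The 3L domains resembled the whole list in median length and quartiles. Their median length was 21 kb (interval 19 to 23 kb, n = 407), with quartiles at 13 and 44.5 kb, against 21.5 kb with quartiles at 12.5 and 44 kb over all 2126 domains. The 10 and 90% points of the lengths lay at 8.5 and 116 kb. Domains of up to 10 kb numbered 70, or 17.2%, where the whole list had 16.2%, and together they held 0.579 Mb, 2.98% of the domain length of the arm. Domains over 100 kb numbered 49, or 12.04%, where the whole list had 10.96%, and they held 10.4 Mb, 53.6% of the domain length against 48.0% in the whole list. The 288 domains between these limits held 8.43 Mb. The 43 longest domains, 10.6% of the list of the arm, were enough to hold 50% of its domain length.

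The longest domain of the arm spanned 500 kb (18105001 to 18605000). It was followed by 465 kb (14065001 to 14530000), 445 kb (2590001 to 3035000) and 400 kb (19920001 to 20320000). The fifth place was shared by 2 domains of 395 kb (7375001 to 7770000 and 22310001 to 22705000). These 6 domains were spread over the arm, and no 2 of them were neighbours. At the other extreme, 2 domains were 6 kb long (8621001 to 8627000 and 21503001 to 21509000), and both ended 0.5 kb before the next domain began.

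**Figure D1:**
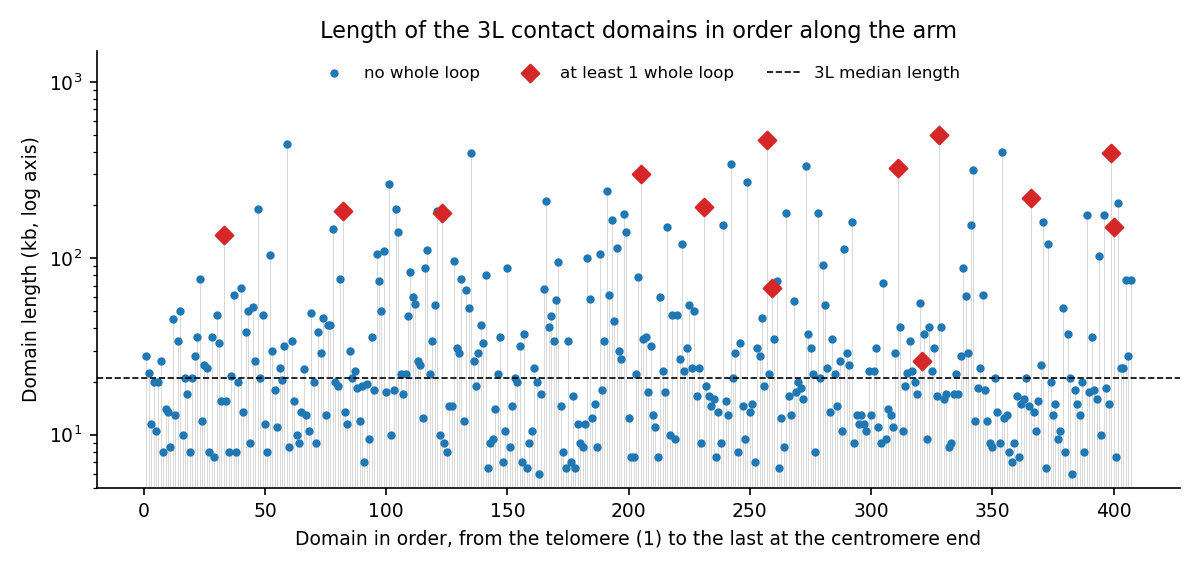
Length in kb (log axis) of each of the 407 domains of 3L against its place in order from the telomere to the centromere end, with red diamonds for the 13 domains that held at least 1 whole loop and a dashed line at the median of 21 kb. Long and short domains are mixed along the whole arm, and 11 of the 13 diamonds lie above 100 kb.

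Domains covered 79.7% of the 24.4 Mb of the arm, counted from 0 to the largest listed position. In the 12 full windows of 2 Mb the covered share ranged from 59.3 to 93.4%, with a median of 81.3%. The 3 fullest windows lay next to each other in the middle of the arm: 90.5% from 10 to 12 Mb, 89% from 12 to 14 Mb and 93.4% from 14 to 16 Mb. The 2 emptiest lay at the ends, with 65.4% in the first window and 59.3% from 22 to 24 Mb. The first window includes 146.5 kb before the first domain. The remaining 0.37 Mb past 24 Mb held 1 domain and was covered to 20.3%.

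The grain of the arm changed from window to window. From 8 to 10 Mb there were 50 domains, the most of any window, with a median of 15.8 kb, and 16 of them (32%) were 10 kb or shorter. The windows on either side had 24 and 27 domains with a median of 32 kb each. The window from 20 to 22 Mb had the lowest median length of the 12, 15.3 kb, with 40 domains. More domains, 46 and 45, lay from 0 to 2 Mb and from 16 to 18 Mb, with medians of 21 and 22.5 kb. Domains over 100 kb occurred in every full window, from 1 in the first to 7 from 10 to 12 Mb. Over all 407 domains, length had almost no monotone relation to position (Spearman rho = -0.03).

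**Figure D2:**
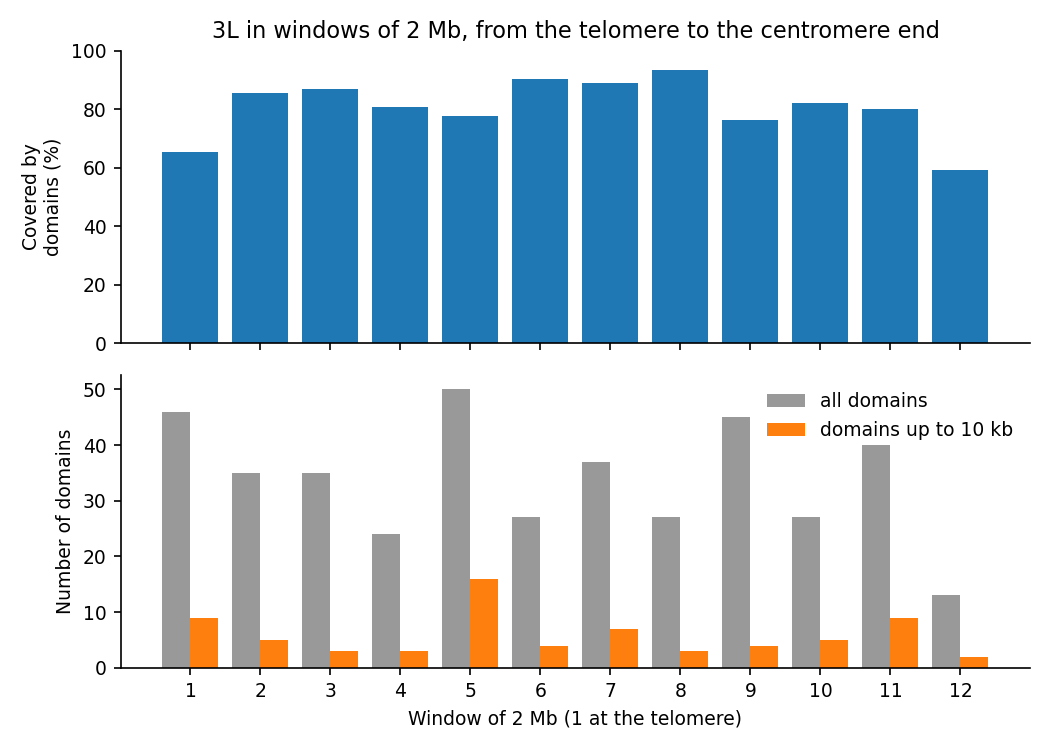
The upper panel gives the share of each 2 Mb window covered by domains (%), and the lower panel the number of domains whose centre lies in it (grey) and of those up to 10 kb long (orange), for the 12 full windows of 3L from the telomere. Coverage is highest in windows 6 to 8 and lowest in windows 1 and 12, and window 5 has the most domains, 50, of which 16 are up to 10 kb.

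At the centromere end the row of domains thinned out. The last 2 Mb, counted back from the end of the last domain, held 9 domains (4.5 per Mb) with a median of 75 kb (interval 24 to 205 kb). This stretch was covered to 46.2%, and sequence past the last domain was not counted. Whether read depth was lower there was not tested. The first 2 Mb held 46 domains (23 per Mb) with a median of 21 kb (interval 14 to 28 kb), and the 20.4 Mb between held 352 (17.3 per Mb) with the same median, covered to 84.4%. None of the 8 gaps beginning in the last 2 Mb was 2 kb or shorter, and 4 were over 50 kb. The change came within that stretch. Its first 4 domains, of 395, 150, 7.5 and 205 kb, lay 4.5 to 8 kb apart. The last 5, of 24, 24, 75, 28 and 75 kb, were separated from what lay before each of them by 154, 47, 246, 83 and 529 kb.

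Most neighbouring domains lay close together without touching. The 406 gaps had a median of 3 kb and quartiles at 1.5 and 9 kb, against 3.5 kb with the same quartiles over all 2120 gaps of the list. The narrowest gap was 0.5 kb and occurred 35 times, and no gap was 0. Gaps of up to 2 kb, called sharp borders here, numbered 165, or 40.6%, against 37.1% in the whole list. This share follows the limit chosen, being 19.0% at 1 kb and 63.1% at 5 kb. Between windows it ranged from 15.4% (22 to 24 Mb) to 56.8% (12 to 14 Mb).

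Sharp borders were found mainly between domains that were not long. Where neither neighbour exceeded 100 kb, 148 of 312 gaps (47.4%) were sharp and the median gap was 2.5 kb. With 1 long neighbour, 17 of 90 gaps (18.9%) were sharp and the median was 7.75 kb. Of the 4 gaps between 2 long domains none was sharp, and they measured from 5 to 24 kb. In all but 1 of these 4 pairs, every domain end was a multiple of 5000 bp. A sharp border was not possible there unless the domains touched, which no neighbours on the arm did. The width of the gap and the mean length of its 2 neighbours had a Spearman rho of 0.28 over 406 gaps. Ends of long domains lay on a coarser grid of positions, with a median gap of 9.25 kb after domains on the coarsest grid and 2.5 kb after those on the finest, and the part of the grid in this relation was not tested.

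Sharp borders joined domains into chains. The arm had 91 chains of at least 2 domains, holding 256 of the 407, and 7 chains of at least 5. The longest chain had 7 domains (6939001 to 7149000). They were 8 to 96 kb long, with a median gap of 1 kb, and covered 96.2% of their 210 kb. Chains of 6 domains lay at 630501 to 825000, in which the domain with the highest score of the arm came first, and at 12728001 to 12822500, in which no domain was longer than 19 kb.

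Wide stretches without a domain were few but large. On 3L 18 gaps exceeded 50 kb (4.43%, against 4.39% in the whole list), and these made up 2.18 Mb, or 45.4% of all sequence between domains. The 5 longest were 529 kb (23766001 to 24295000), 246 kb (23334001 to 23580000), 232 kb (6256001 to 6488000), 154 kb (23085001 to 23239000) and 116 kb (854001 to 970000). Of these, 3 lay in the last 2 Mb, and the 232 kb gap stood alone in the interior of the arm, between domains of 34 and 54 kb. The 146.5 kb before the first domain do not lie between domains and were not ranked. From 10 to 16 Mb no gap exceeded 50 kb. Among the 18 wide gaps, 2 held loop anchors: the 99 kb gap from 1100001 to 1199000 held 2, and the 64.5 kb gap from 17849501 to 17914000 held 1.

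**Figure D3:**
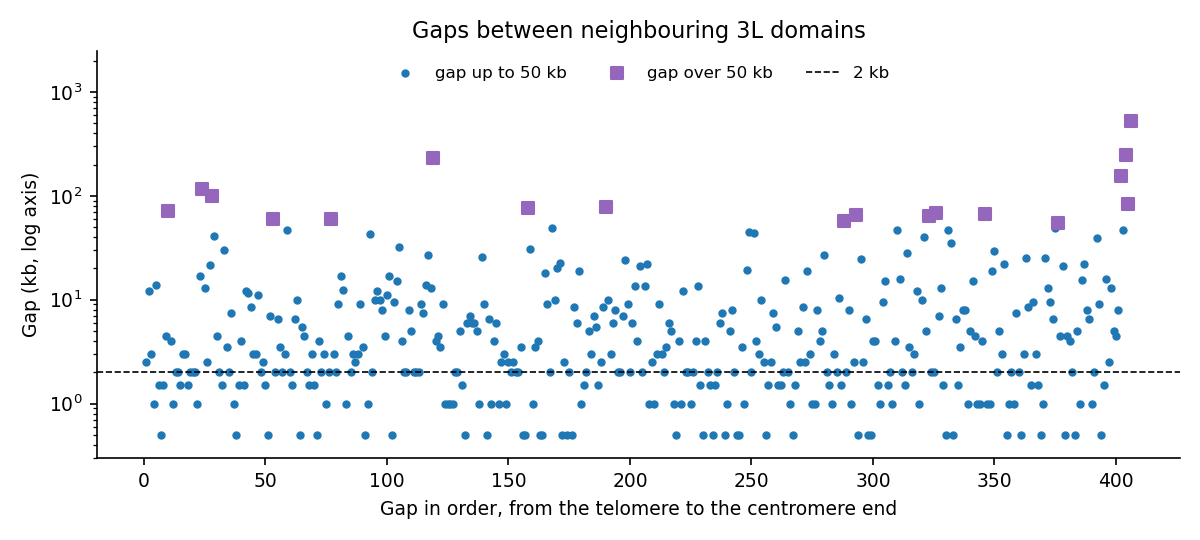
Gap in kb (log axis) between each pair of neighbouring 3L domains in order from the telomere, with purple squares for the 18 gaps over 50 kb and a dashed line at 2 kb. Of the squares, 4 crowd at the centromere end, where the gap of 529 kb is the highest point.

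Runs of short or long domains were counted along the arm, with no comparison to a random order. The arm was divided at its median, so that 207 domains counted as short and 200 as long for this purpose. The longest run of short ones had 11 domains (20342001 to 20533500). They were 7 to 21 kb long and covered 73.1% of 191.5 kb. This run began 22 kb after the 400 kb domain and was followed 1.5 kb later by the 220 kb domain from 20535001 to 20755000, so that 2 of the longer domains of the arm flanked a finely divided stretch. The next runs of short domains had 7 members each and numbered 4. With the limit at 15 kb the longest run of short domains had 6 members.

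The longest run of domains over the median had 10 members (9857001 to 11032000). They were 27 to 240 kb long, with a median of 88 kb, and covered 88% of 1175 kb. It held no loop anchor. The next had 8 members (12060001 to 12461000) of 23 to 120 kb, which covered 94.0% of 401 kb. Domains over 100 kb made up 12.04% of the arm's domains and those up to 10 kb 17.2%, and their runs were shorter. Of the 49 domains over 100 kb, 41 had no other beside them and 8 formed 4 pairs, and domains up to 10 kb reached 3 in a row at 2 places (8052501 to 8085000 and 20369001 to 20396000).

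The length of a domain said little about the next one. Spearman rho between the lengths of neighbours was 0.06 over 406 pairs, and 0.14 between domains 2 places apart. After a domain of up to 10 kb, 12 of 70 next domains (17.1%) were as short and 13 (18.6%) were over 100 kb. After a domain over 100 kb, these numbers were 9 of 49 (18.4%) and 4 (8.16%). Of all 3L domains, 17.2% were up to 10 kb and 12.04% over 100 kb long.

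Each domain carries 5 values of the authors, named score, uVarScore, lVarScore, upSign and loSign in the list. Columns of this kind are written by Arrowhead, the domain caller of the Juicer tools. There the first rates how sharply the corner of a domain stands out in the map. The next 2 are variances of the upper and lower of 2 triangles beside that corner, and the last 2 describe how uniform the sign is in each. No source used here says whether that program made the list, and the scale of the values is not stated.

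The score of the 407 domains ranged from 0.640 to 1.90 with a median of 1.31 and quartiles at 1.09 and 1.51. The whole list had the same median, 1.31. The highest belonged to a 17 kb domain near the telomere (630501 to 647500, score 1.90), followed by domains of 220 kb (20535001 to 20755000, 1.90), 84 kb (5656001 to 5740000, 1.89), 46 kb (13997001 to 14043000, 1.88) and 178 kb (10690001 to 10868000, 1.88). The lowest were a 28 kb domain (23738001 to 23766000, 0.640), one of 95 kb (9210001 to 9305000, 0.685), one of 7.5 kb (20422001 to 20429500, 0.742), one of 25 kb (970001 to 995000, 0.750) and the last domain of the arm, of 75 kb (24295001 to 24370000, 0.758). Of these 5, 3 bordered on one of the 5 longest gaps.

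Short domains had the lower scores. Up to 10 kb the median score was 1.02 (n = 70, quartiles 0.878 and 1.22) and none exceeded 1.58. It was 1.29 from 10 to 20 kb (n = 126), 1.36 from 20 to 50 kb (n = 123), 1.40 from 50 to 100 kb (n = 39) and 1.51 over 100 kb (n = 49, quartiles 1.36 and 1.64). The ranges overlapped widely, and the highest score of the arm belonged to a domain of 17 kb. Spearman rho of score and length was 0.44 over the 407 domains, and 0.24 when domains under 10 kb were left out. By the grid of positions on which the ends lay, the median score was 1.27 on the finest, 1.34 on the middle one and 1.42 on the coarsest. The part of the grid in the relation of score and length was not tested. Of the other values, upSign (rho = 0.60) and loSign (rho = 0.65) went with length, and both had a rho of more than 0.8 with the score (0.82 and 0.81). Whether the score was calculated in part from upSign and loSign is not known here.

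**Figure D4:**
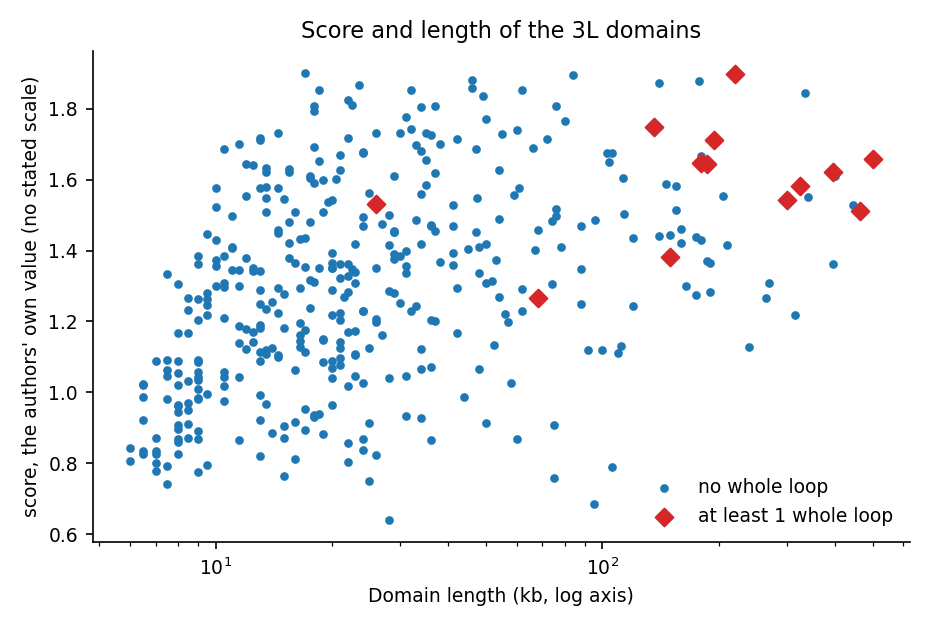
The authors' score (no stated scale) of each 3L domain against its length in kb (log axis), with red diamonds for the 13 domains that held at least 1 whole loop. Scores of domains up to 10 kb lie between 0.742 and 1.58, and 12 of the 13 diamonds lie above the median score of 1.31.

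Neighbouring domains had more similar scores than lengths. Over the 406 pairs of neighbours, Spearman rho of the 2 scores was 0.26, and it was 0.07 between domains 2 places apart. It was close to the same across sharp borders (0.28, 165 pairs) and across wider gaps (0.25, 241 pairs). The same value was 0.25 on 2L, 0.17 on 2R, 0.12 on 3R and 0.13 on X, and -0.26 on chromosome 4 with its 20 pairs. Along the arm the median score of a window lay between 1.19 (8 to 10 Mb, the window richest in short domains) and 1.53 (2 to 4 Mb).

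The 2 variance values had low medians and a few high members. The uVarScore had a median of 0.0410, with quartiles at 0.0315 and 0.0562, and the lVarScore a median of 0.0415, with quartiles at 0.0303 and 0.0598. Over all arms the medians were 0.0448 and 0.0447. In 319 of 407 domains the 2 values were within a factor of 2 of each other, and their rho was 0.36. Values over 0.15 were found in 7 domains for uVarScore and in 12 for lVarScore, with 2 domains in both counts.

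These 2 domains were the 36 kb one from 11565501 to 11601500 (uVarScore 0.259, lVarScore 0.219) and the 42 kb one from 7862001 to 7904000 (0.227 and 0.252), both with scores under the median of the arm (1.07 and 1.17). A 52.5 kb domain (21373501 to 21426000) exceeded 0.15 in uVarScore only (0.249, with 0.105 for lVarScore), and a 92 kb domain (15830001 to 15922000) in lVarScore only (0.212, with 0.0850 for uVarScore). The lowest values of both belonged to the 15 kb domain from 20430001 to 20445000 (0.00804 and 0.00989), a member of the run of 11 short domains. Next lowest were, for uVarScore, domains at 2194001 to 2242000 (0.0111) and 12782001 to 12798000 (0.0113) and, for lVarScore, at 4171001 to 4192000 (0.0124) and 20379001 to 20386000 (0.0126).

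The 2 variance values differed, weakly, in the side of the domain whose gap they went with. The uVarScore went with the gap before the domain, on its telomere side (rho = 0.21, 406 domains), and hardly with the gap after it (rho = -0.005). The lVarScore had a rho of 0.19 for the gap after the domain and 0.04 for the gap before it. Gaps on either side were classed as up to 2 kb (n = 165), 2 to 10 kb (n = 155), 10 to 50 kb (n = 68) and over 50 kb (n = 18). By the gap before the domain, median uVarScore was 0.0384, 0.0426, 0.0466 and 0.0465 in these classes. Median lVarScore was 0.0432, 0.0376, 0.0476 and 0.0500. By the gap after the domain, median lVarScore was 0.0378, 0.0442, 0.0475 and 0.0498, and median uVarScore 0.0423, 0.0404, 0.0403 and 0.0506. Over 50 kb the medians thus did not keep to 1 side, on few domains. On 2L, 2R, 3R and X, uVarScore and the gap before gave a rho of 0.15, 0.20, 0.15 and 0.17, and lVarScore and the gap after one of 0.15, 0.14, 0.11 and 0.07, while the opposite sides gave between -0.14 and 0.07. Chromosome 4, with 20 gaps, had 0.27 and -0.06, and on the opposite sides -0.22 for uVarScore and 0.22 for lVarScore. All these relations are weak.

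The domains at the thinned centromere end had low scores and, in 3 of 5, high lVarScores. The last 5 had scores of 0.838, 1.23, 0.909, 0.640 and 0.758, all under the arm's median. Their lVarScores were 0.113, 0.135, 0.0493, 0.0355 and 0.125, of which 3 exceeded 0.1, against an upper quartile of 0.0598 on the arm. Their uVarScores, at 0.0415, 0.0359, 0.0516, 0.0825 and 0.0393, were within the quartiles of the arm except for 1. The 395 and 205 kb domains just before them had scores of 1.62 and 1.55.

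The loop list placed 26 loops on 3L, or 10.7 per 10 Mb, out of 120. Their median span between anchor midpoints was 55.5 kb (interval 40 to 82 kb, n = 26), with quartiles at 38.9 and 92.9 kb. Apart from 1 loop of 2.675 Mb, the spans ran from 11 to 240 kb. The loops used 47 distinct anchors, 42 of them in 1 loop and 5 in 2, and 7 loops belonged to 3 sets that shared anchors. No loop was centred from 8 to 10 Mb, the window with the most domains. Leaving out the long loop, the widest stretch of the arm between the anchor midpoints of successive loops measured 4.34 Mb (6897501 to 11241000) and held 81 whole domains, 8 of them over 100 kb.

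Of the 26 loops, 18 lay whole inside 1 domain, or 69.2% (interval 48.2 to 85.7%), against 60% of all 120 loops. They lay in 13 domains, of which 9 held 1 loop, 3 held 2 and 1 held 3. These domains were long: 11 of the 13 exceeded 100 kb, and their median was 194 kb. Of the 49 domains over 100 kb 22.4% held a whole loop, and of the 358 others 0.559% did. A loop fits only into a domain longer than itself, and 83 of the 407 domains were no longer than the shortest loop of the arm. The median span of the inside loops was 48.4 kb, and 93 domains were longer than that.

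The anchors are the ends of these same loops, so their places largely repeat that count and are not separate support for it. Domains over 100 kb covered 42.7% of the arm and held 29 of the 47 anchors (2.79 per Mb). Domains over 10 and up to 100 kb covered 34.6% and held 8 (0.949 per Mb), and those up to 10 kb covered 2.38% and held none. The sequence outside domains made up 20.3% of the arm and held 10 (2.02 per Mb). In all, 37 of 47 anchors (78.7%) were in a domain, near the 79.7% of the arm that domains covered. The domains with an anchor numbered 18, which leaves 389 without one.

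Inside their domains the loops were placed in various ways. They spanned from 7.33 to 94.2% of the domain, with a median of 21.5%, and 5 of the 18 spanned more than 50%. The 300 kb domain from 11215001 to 11515000 held 3 loops that joined 3 anchors in all pairs, at 8.67, 69.2 and 88.7% of its length, over spans of 181.5, 240 and 58.5 kb. The 194 kb domain from 12530001 to 12724000 held 2 loops that met at an anchor at 61.1% of its length and reached to 37.9 and 80.4%. In the 136 kb domain from 1352001 to 1488000, a loop of 96.5 kb enclosed another of 18 kb. In the 395 kb domain from 22310001 to 22705000 a loop of 58 kb enclosed one of 40 kb, and they ended at 24.1 and 22.8% of its length from the telomere side.

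The 9 domains with 1 whole loop included both of the longest on the arm. In the 500 kb domain, the loop spanned 47.8 kb, 9.55% of the length, with its anchors at 14.9 and 24.5%. In the 465 kb domain, the loop spanned 49 kb (10.5%) with anchors at 76.6 and 87.1%. The 325 kb domain from 17085001 to 17410000 held a loop of 97 kb (29.8%), the 220 kb domain from 20535001 to 20755000 one of 74 kb (33.6%), and the 180 kb domain from 6750001 to 6930000 one of 113.5 kb (63.1%). The 186 kb domain from 3910001 to 4096000 held a loop of 18 kb (9.68%), and the 150 kb domain from 22710001 to 22860000 the shortest loop of the arm, of 11 kb (7.33%). The only hosts of 100 kb or less were a 68 kb domain (14556001 to 14624000) with a loop of 23 kb (33.8%) and a 26 kb domain (17732001 to 17758000) with a loop of 24.5 kb (94.2%).

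**Figure D5:**
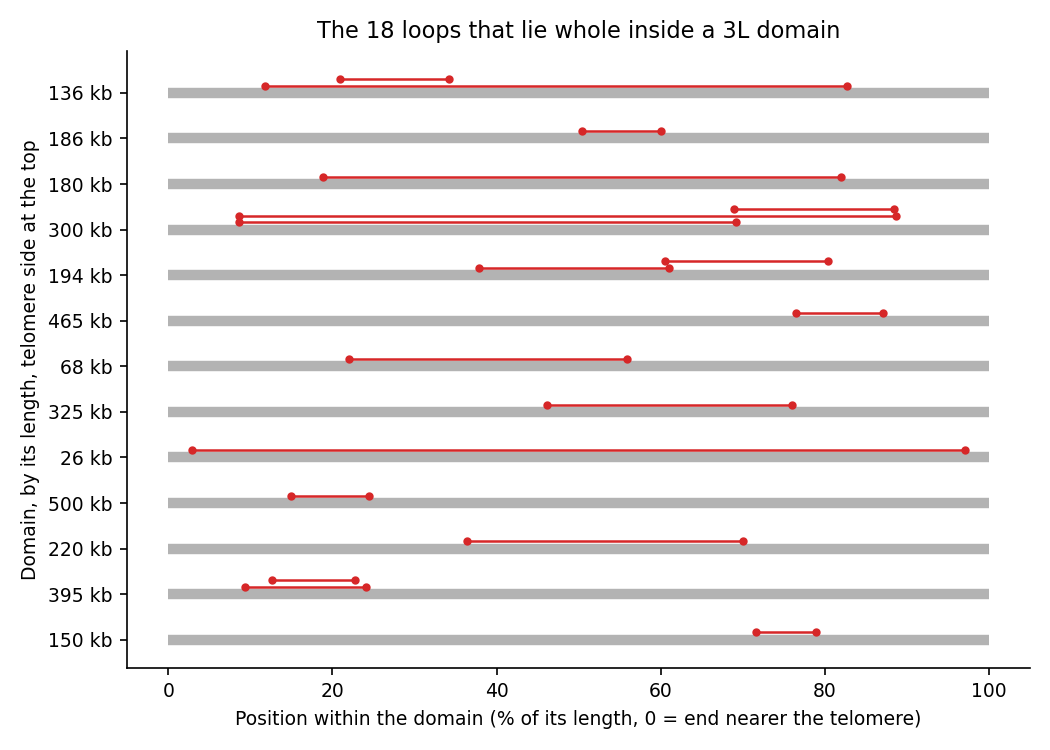
Each grey bar is one of the 13 domains of 3L that held a whole loop, scaled to 100% of its length and ordered from the telomere at the top, and each red line joins the anchor midpoints of 1 of the 18 loops inside. The loops span from 7.33 to 94.2% of the domain, and the one in the 26 kb domain reaches nearly from end to end.

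The domains with a whole loop had higher scores than the rest. Their median score was 1.62 (n = 13, range 1.27 to 1.90), against 1.30 (n = 394, range 0.640 to 1.90) for domains without one, and 12 of the 13 lay above the arm's median. Since score goes with length, the comparison was repeated over 50 kb, where the medians were 1.63 (n = 12) and 1.44 (n = 76), and over 100 kb, where they were 1.64 (n = 11) and 1.44 (n = 38). The groups still differed in length there, with medians of 207 and 101.5 kb over 50 kb and of 220 and 170 kb over 100 kb. The difference in median score was 0.32 over all domains and 0.20 over 50 kb. The ranges overlapped in each case. Loops and domains were listed from 1 map, and how far the 2 lists depend on each other was not tested. The variance values differed little between the groups, with a median uVarScore of 0.0463 against 0.0408 and a median lVarScore of 0.0388 against 0.0415.

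A few loops joined the 2 ends of a domain. Within 10 kb of the start and the end, 5 of 26 loops (19.2%, interval 6.55 to 39.4%) were at a corner, against 14.2% of all 120. With a tolerance of 5 kb this share was 11.5%, and with 2 kb it was 7.69%. In 2 cases both anchors were within 1 kb of the ends: the loop of 21 kb at the domain from 2171001 to 2192000, 0.25 kb off at each end, and the loop of 24.5 kb at the 26 kb domain named above, 0.75 kb off at each end. At the 50 kb domain from 12411001 to 12461000, the distances were 0 and 3 kb. At the domains from 17914001 to 17955000 and from 4550001 to 4624000 the first anchor lay 6.25 and 7 kb before the start, and the second 0.25 and 1 kb past the end. These corner domains, 21 to 74 kb long, were shorter than most domains with loops inside, and their scores of 1.14, 1.53, 1.77, 1.36 and 1.31 lay on both sides of the arm's median.

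The 8 loops that were not inside a domain had a median span of 75.9 kb, and 4 of them were corner loops. Another, of 129 kb, shared its second anchor (4540001 to 4546001) with the corner loop at the domain from 4550001 to 4624000. One of 75.3 kb (673001 to 674001 with 748001 to 749501) passed over 2 whole domains. One of 76.5 kb (1098501 to 1103001 with 1175501 to 1179001) lay with both anchor midpoints in the 99 kb gap from 1100001 to 1199000 and had no domain end between them. The longest (6645001 to 6650001 with 9320001 to 9325001) passed over 50 whole domains. Its first anchor lay in a 186 kb domain (6546001 to 6732000), 84.5 kb from the nearest end, and its second in a gap, 5 kb from the nearest end.

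The distance of the anchors from the domain ends was set beside that of the arm itself, with no test. The median distance from an anchor to the nearest domain end was 32.5 kb, and 30 of 47 anchors (63.8%) were over 20 kb away, up to 150 kb, as was 46.7% of the arm. Within 5 kb there were 12 anchors, or 25.5% (interval 13.9 to 40.4%), near the 24.1% of the arm that lay so close to an end. Within 2 kb there were 10, or 21.3%, against 11.3% of the arm. From 5 to 20 kb there were 5, or 10.6%, against 29.2% of the arm.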

How the data were processed

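Both Kc167 samples entered 2 lists, which the authors made from the combined reads, per the file names. The submitters' processing notes name BWA, Juicer and the dm3 (BDGP5) build, and no source used here names the callers, settings or versions. The score values per domain are the authors' own, per the file headers. The other deposited columns used are positions, and loops carry no count or depth. A gap is the distance from a domain's end to the next start. Touching or overlapping anchors were merged, and a loop was inside a domain when both whole anchors were. No domains overlapped. Spearman's rho is given without p, since neighbouring domains are not independent. Python 3.11.15, numpy 2.4.6, scipy 1.17.1 and pandas 2.3.3 were used, and the code was tested on made-up domains and loops. No dm3 sequence or gene annotation was used here, so the planned steps on genes and sequence were not run.

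The arm, limits and alternatives were chosen with earlier results of these data known. Regions named by rule were the 5 longest domains with ties, the shortest, the 5 highest and lowest by score, the 3 highest and lowest by each variance value, the 5 longest gaps, the longest runs and chain, and the loops. The further runs, chains, gaps and end domains that are named, and the relation of the variance values to the gaps, were chosen after their values were seen.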

Additional observations from a re-analysis of the deposited data

How the results depend on the processing

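No paired analysis was possible because both samples were pooled before deposit, which also means that neither could be left out. Of 33 alternative values, 21 stayed within the interval or spread of the value reported, or within 1.5 times for run lengths, and 12 did not. The median length was 16 kb for the lower 50% of domains by score, 30.5 kb for the upper 50% and 34 kb for the upper 25%. Without domains under 10 kb it was 24 kb. With the upper 50% alone, coverage was 55.8% and the median gap 9.5 kb, as that choice removes domains. The rho of score and length was then 0.18, over a range of scores narrowed by the same choice. This rho was 0.24 from 10 kb upwards. Sharp borders were 19.0% at 1 kb and 63.1% at 5 kb, the longest short run had 6 domains with the limit at 15 kb, and loop domains over 50 kb exceeded the others by 0.20 in median score. The spread for coverage was the SD over windows (10.1 percentage points). Loops inside a domain stayed between 65.4 and 72% in 4 alternatives. Corner loops ranged from 7.69 to 23.1%, on few loops. Depth could not be assessed.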

Other observations

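The ends of the 3L domains lie on grids of different fineness. All lie on multiples of 500 bp. In 43 domains (10.6%) both ends are multiples of 5000 bp, and these have a median length of 175 kb, none being under 15 kb. In a further 209 (51.4%) both are multiples of 1000 bp, with a median of 29 kb. The other 155 (38.1%) have a median of 12.5 kb and none is over 52.5 kb. All 49 domains over 100 kb belong to the 2 coarser classes, 32 to the first and 17 to the second, and 52 of the 70 domains up to 10 kb to the finest. The median gap after a domain was 9.25 kb in the coarsest class, 3 kb in the middle one and 2.5 kb in the finest.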
